A study of Mus musculus with 36 samples.

Results

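A group of 10 genes that the tumour suppressor p53 is known to switch on was followed through liver regeneration in young and old mice. The members were Cdkn1a, Mdm2, Ccng1, Phlda3, Eda2r, Bax, Trp53inp1, Zmat3, Aen and Gdf15. They were found by their symbols in the count tables of all libraries, and they make up 10 of the 21955 genes listed there. RNA was sequenced from livers of C57BL/6JN mice that were young (4 months) or old (18 months). Livers were taken before regeneration and at 5 later time points labelled 48, 72, 96, 120 and 240, and the labels give neither the unit of these numbers nor the way regeneration was started. Both ages and all 6 times together gave 12 groups with 3 libraries apiece (36 in all), which the series calls biological replicates. Nothing in the labels names a genotype, a treatment other than age, or the sex of the mice.

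p53 is a transcription factor that is held at a low level by the ubiquitin ligase MDM2 and accumulates when MDM2 loses its hold, for instance after DNA damage. It then binds response elements made of paired half-sites and raises genes that stop the cell cycle, repair DNA, drive apoptosis or restrain p53 itself. In liver, Cdkn1a is the target best known for holding hepatocytes back from division during regeneration, and other factors besides p53 can raise it as well.

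Stretches of the members' promoters are shown because the members are grouped by a shared regulator and several of them rose together. RefSeq promoter windows of 300 bases (GRCm38.p6, 250 bases before to 50 after a start) were held for 8 of the 10 members, the exceptions being Trp53inp1 and Zmat3. The consensus p53 half-site, 10 letters long and the same on both strands, was found in 5 of the 8, against 8.36% of all 32851 windows and 9.55% of the 27025 symbols with a window. The members were listed as known p53 targets, so a higher share among them is no result of these data. A full element, that is 2 half-sites with at most 13 bases between them, was present in the window of Cdkn1a and in 24 windows overall (0.0731%). A half-site had to match the consensus in every letter, so near matches were not counted and stay in lower case. In the sequences below, written 5′ to 3′ on the strand of the gene, capitals mark the half-sites.
Cdkn1a: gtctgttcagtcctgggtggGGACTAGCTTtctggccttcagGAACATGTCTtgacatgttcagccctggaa
Mdm2: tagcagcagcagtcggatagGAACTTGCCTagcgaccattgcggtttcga
Ccng1: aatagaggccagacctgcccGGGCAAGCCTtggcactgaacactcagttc
Bax: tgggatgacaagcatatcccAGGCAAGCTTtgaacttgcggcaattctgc
Aen: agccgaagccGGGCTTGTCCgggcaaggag

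The Cdkn1a stretch lies at chr17:29090886-29090957 on the plus strand, its 2 half-sites are 12 bases apart, and the first begins 73 bases before the start. The Mdm2 stretch (chr10:117710915-117710964, minus strand) has its half-site 186 bases before the start. For Ccng1 (chr11:40755442-40755491, minus strand) the distance is 185 bases, and for Bax (chr7:45467070-45467119, minus strand) it is 201 bases. In the GENCODE M21 annotation none of these 4 stretches overlaps an exon. The Aen stretch (chr7:78895927-78895956, plus strand) lies in an Aen exon, 121 bases before one annotated start and 10 bases after another. No half-site was found in the windows of Phlda3, Eda2r or Gdf15. A match is a description of letters and not a bound site, and the absence of one says only that these letters are not in this window.

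Total counts per library ran from 2328233 to 6034446 (median 4439170). All 10 members passed the filter on low counts, and the lowest count of a member in a library was 4. Levels are given as CPM, the depth-scaled count, with library totals adjusted by TMM. Hepatocyte markers summed to between 17368 and 28451 CPM and 0 of the 8 were at zero throughout, so the defining genes of the labelled tissue were present. In 12 libraries, 1 per group, Y-linked transcripts were present, while the other 24 lacked them, a split that the labels do not give and that is followed below for each member. Old 48 replicate 2 stood apart from the other libraries of its group (chi-square per degree of freedom 61.9 and 71.2, against at most 32.7 for any pair outside that group). Several results at old 48 are therefore also given without it, and the rest include it. In bulk tissue, fewer cells of a type and less RNA per cell cannot be told apart.

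Cdkn1a, which encodes the cyclin-dependent kinase inhibitor p21, had the largest rise of the 10 members at 48 in both ages. The gene lies at chr17:29090979-29100722 on the plus strand (GRCm38.p6). Before, the 3 young libraries held 2.29, 4.23 and 3.87 CPM and the 3 old libraries 9.39, 2.68 and 3.65 CPM. At 48 the young libraries held 66.7, 39.3 and 78.4 CPM and the old ones 54.9, 191 and 69.7 CPM. Every library at 48 was thus above every library before, in both ages, and the old libraries spread widely around a mean of 105 ± 74.8 CPM (SD, n = 3) against 61.4 ± 20.03 CPM in young (SD, n = 3). The rise from before was 4.16 ± 0.77 on the log2 scale in young (SE, edgeR adjusted p 0.00026) and 4.33 ± 0.74 in old (SE, edgeR adjusted p 0.000209), a 17.8-fold and a 20.1-fold difference. The old value was 3.60 without old 48 replicate 2 and 5.07 without old before replicate 1, the library at 9.39 CPM, and it passed the edgeR test in both cases.

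The means of Cdkn1a were lower at each later time in both ages, and the old mean was the higher one throughout. At 72 the young libraries held 31.2, 61.2 and 29.8 CPM and the old ones 39.6, 43.5 and 73.3 CPM. At 96 young livers held 11.7, 15.8 and 6.91 CPM, and old livers 91.5, 31.8 and 6.47 CPM. The old group at 96 therefore contained both a library within the range of those at 48 and one below all young libraries of that time. At 120 the young libraries held 15.2, 4.63 and 11.99 CPM and the old ones 23.9, 24.6 and 20.5 CPM, so that the ages did not overlap. At 240 the values were 1.69, 6.60 and 4.82 CPM in young and 20.7, 4.09 and 10.4 CPM in old. Over before, Cdkn1a had risen at 72 by 3.56 ± 0.76 in young and 3.32 ± 0.72 in old (log2, SE, edgeR adjusted p 0.00248 and 0.0037). At 96 the old rise of 3.01 ± 0.73 passed (SE, edgeR adjusted p 0.0134) and the young difference of 1.76 ± 0.79 did not (SE, edgeR adjusted p 0.281). Without old 96 replicate 1 the old value was 1.90 and the call was lost (edgeR adjusted p 0.162), as it was without old before replicate 2 or 3 (0.0802 and 0.0862). Ordered by mean, the sequence ran old 48, young 48, old 72, old 96, young 72, old 120, old 240, young 96, young 120, old before, young 240 and young before. Of the 11 pairs of neighbours in that order, 10 had overlapping ranges, and the exception was young 72 above old 120.

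**Figure D1:**
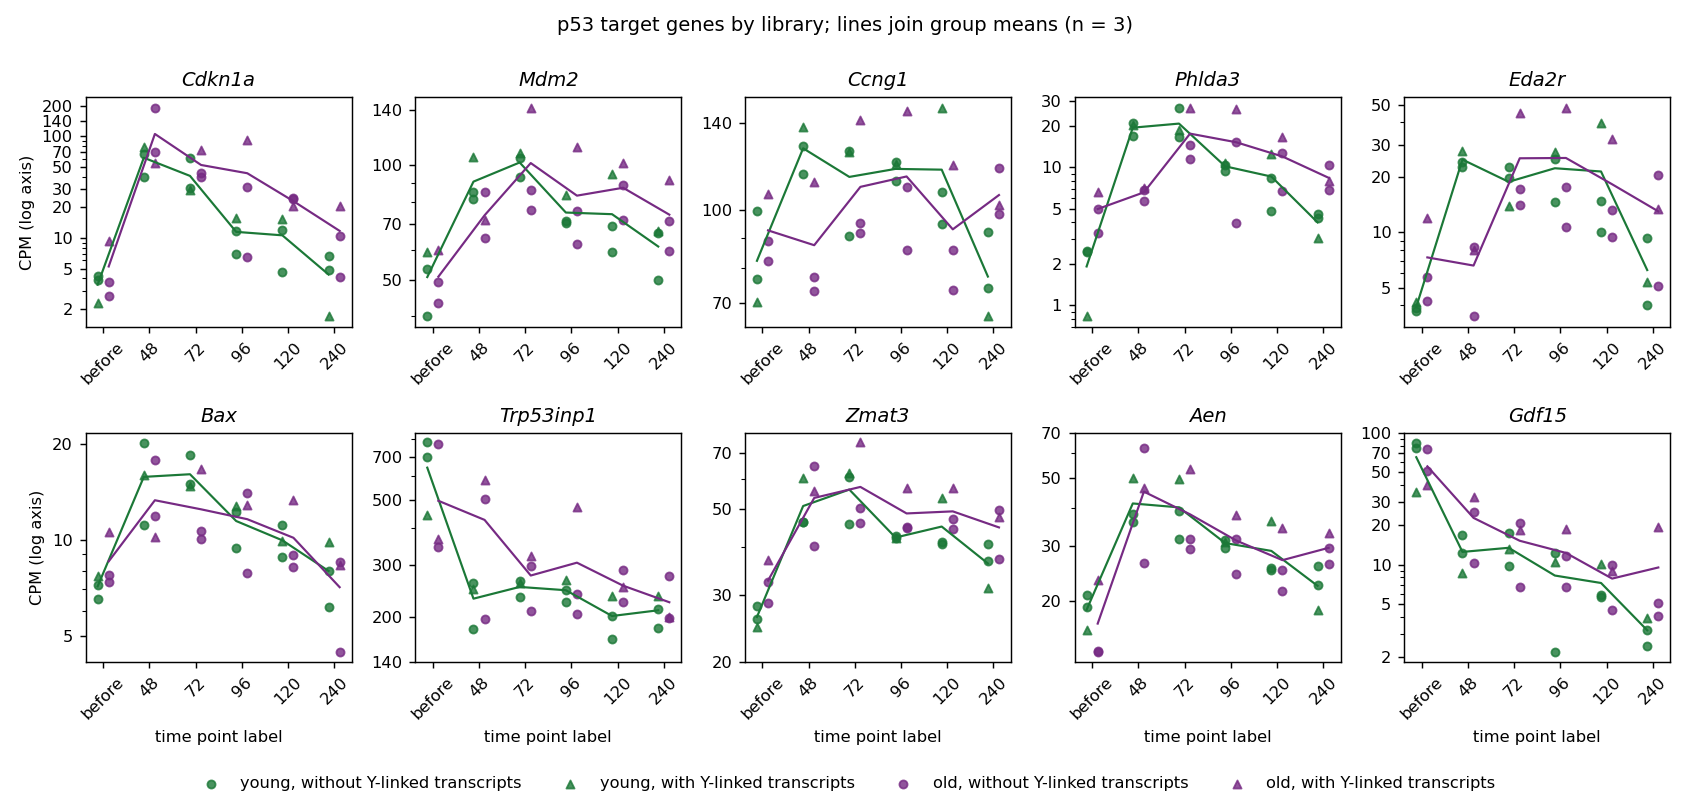
CPM of each member (log axis, scales differ between panels) in every library by time point label, young in green and old in purple, with lines through the group means (n = 3) and triangles for libraries with Y-linked transcripts. Cdkn1a rises in both ages at 48, Phlda3 and Eda2r stay low in the 3 old libraries at 48, and Trp53inp1 and Gdf15 start high and decline.

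Mdm2 and Ccng1, which feed back on p53, moved little by comparison. Mdm2, whose product ubiquitinates p53, had means of 50.8 ± 9.80 CPM in young and 50.9 ± 8.36 CPM in old livers before (SD, n = 3 each). Its highest means were 102 ± 7.68 CPM in young and 101 ± 35.5 CPM in old, both at 72 (SD, n = 3 each), a rise of 1.00 ± 0.23 on the log2 scale in each age (SE, edgeR adjusted p 0.00345 in young and 0.0049 in old). At 48 it had risen in young by 0.83 ± 0.23 (SE, edgeR adjusted p 0.0088), and in old the difference of 0.54 ± 0.23 did not pass (SE, edgeR adjusted p 0.0855). The old call at 72 was lost without old 72 replicate 3 (0.68, edgeR adjusted p 0.0735), and the young call at 48 without young before replicate 3 or young 48 replicate 3 (0.0677 and 0.0528). Ccng1, which encodes cyclin G1 and acts through MDM2 and a phosphatase, ranged only from 77.5 to 127 CPM across group means. It rose at 48 in young (0.62 ± 0.22, SE, edgeR adjusted p 0.0369) and passed the test at no other time in either age. That call was lost without young before replicate 1 or 2 or young 48 replicate 2 or 3 (edgeR adjusted p 0.0696 to 0.149), and without the libraries with Y-linked transcripts (0.48, 0.11).

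Phlda3 and Eda2r differed most between the ages at 48. Phlda3 (chr1:135766085-135769134, plus strand) encodes a repressor of the survival kinase AKT. Before, it held 0.832, 2.49 and 2.42 CPM in young and 6.57, 3.35 and 5.02 CPM in old livers. At 48 young livers held 20.9, 16.8 and 20.2 CPM and old livers 7.11, 6.89 and 5.73 CPM. All 3 old libraries at 48 lay below all 3 young ones, and before regeneration the order was the opposite, again without overlap. Phlda3 rose 10.2-fold in young (3.35 ± 0.50 on the log2 scale, SE, edgeR adjusted p 1.61e-05), whereas the old change was 0.40 ± 0.46 (SE, edgeR adjusted p 0.557). At 72 young libraries held 16.4, 27.0 and 18.6 CPM and old ones 14.4, 11.5 and 26.6 CPM, and at 96 they held 10.4, 10.6 and 9.40 CPM in young and 26.2, 15.3 and 3.94 CPM in old. By then the ages overlapped, and in old livers Phlda3 had risen over before by 1.81 ± 0.44 at 72 (SE, edgeR adjusted p 0.0069) and by 1.56 ± 0.45 at 96 (SE, edgeR adjusted p 0.0337). At 120 young livers held 12.5, 8.34 and 4.85 CPM and old livers 12.6, 6.68 and 16.6 CPM. At 240 the values were 3.10, 4.32 and 4.55 CPM in young and 7.92, 6.81 and 10.4 CPM in old, with every old library above every young one. The old call at 72 was lost without old before replicate 2 (1.60, edgeR adjusted p 0.0501) or old 72 replicate 3 (1.38, 0.0704). At 96 it was lost without old before replicate 2 or 3 or old 96 replicate 1 or 2, with values between 0.99 and 1.59 (edgeR adjusted p 0.1 to 0.275).

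Eda2r (chrX:97333837-97377234, minus strand) encodes a receptor of the TNF receptor family that binds ectodysplasin-A2. Young livers held 4.16, 3.73 and 3.87 CPM before and 22.9, 24.3 and 27.8 CPM at 48. Old livers held 11.97, 4.24 and 5.70 CPM before and 8.002, 8.31 and 3.48 CPM at 48. The young libraries thus separated fully between both times, while the old ones did not leave their earlier range upwards. Eda2r rose by 2.66 ± 0.65 in young at 48 (log2, SE, edgeR adjusted p 0.00366) against -0.15 ± 0.64 in old (SE, edgeR adjusted p 0.894). In old livers it passed the test at 72 only, where the libraries held 17.2, 14.04 and 44.99 CPM (1.81 ± 0.60, SE, edgeR adjusted p 0.0479). Without old 72 replicate 3, the library at 44.99 CPM, that value was 1.104 (edgeR adjusted p 0.318). The call was lost in 24 of 47 alternatives, among them 21 of the 36 fits that left out 1 library. It was lost too without the libraries with Y-linked transcripts (edgeR adjusted p 0.062) and with only the groups compared (0.108).

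Bax, Aen and Zmat3 act in cell death and RNA control. Bax, the pore-forming protein of the mitochondrial outer membrane, rose in young by 1.14 ± 0.28 at 48 and 1.16 ± 0.28 at 72 (log2, SE, edgeR adjusted p 0.00322 and 0.00499). In old livers Bax passed at no time, with 0.64 ± 0.28 at 48 (SE, edgeR adjusted p 0.0901). Aen, a nuclease that promotes apoptosis, rose at 48 in young (1.14 ± 0.27, SE, edgeR adjusted p 0.00248) and in old (1.42 ± 0.27, SE, edgeR adjusted p 0.00049). Its means at 48 were 41.3 ± 7.44 CPM in young and 45.1 ± 18.1 CPM in old (SD, n = 3 each), from 18.7 ± 2.47 and 16.9 ± 5.53 CPM before (SD, n = 3 each). Zmat3, an RNA-binding zinc finger protein, rose at 48 by 0.96 ± 0.19 in young (SE, edgeR adjusted p 0.000407) and by 0.71 ± 0.19 in old (SE, edgeR adjusted p 0.00653). Aen and Zmat3, with Cdkn1a, were thus the members that passed in old livers at 48. The old calls of Aen and Zmat3 at 48 held in all 36 fits that left out 1 library. Both were lost when only the groups compared were fitted (edgeR adjusted p 0.0841 and 0.115).

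Trp53inp1 and Gdf15 went the other way. Trp53inp1, which takes part in the stress response and in autophagy, had its highest means before, 642 ± 176 CPM in young and 495 ± 240 CPM in old (SD, n = 3 each). In young livers it fell at all 5 later times, with log2 differences from -1.67 to -1.35 and edgeR adjusted p between 0.00143 and 0.0256. The calls at 96, 120 and 240 were each lost without young before replicate 2 or 3, those at 96 and 240 without any 1 library of that time, and that at 120 without young 120 replicate 2 or 3 (edgeR adjusted p 0.0526 to 0.234), with those at 96 and 240 lost without the Y-linked libraries too (0.0792 and 0.0586). In old livers it passed at none, and its 3 libraries at 48 held between 197 and 581 CPM against 182 to 260 CPM in young. Gdf15, a secreted stress hormone of the TGF-beta family, fell in young at all 5 times, from 65.2 ± 26.1 CPM before to 3.18 ± 0.77 CPM at 240 (SD, n = 3 each; a log2 difference of -4.35 ± 0.64, SE, edgeR adjusted p 0.000729). Old livers began at 55.6 ± 18.3 CPM and held 9.51 ± 8.54 CPM at 240 (SD, n = 3 each). Gdf15 fell there at 72, 96 and 120, with log2 differences of -1.86, -2.21 and -2.82 (edgeR adjusted p 0.0221, 0.0163 and 0.00654). All 3 calls were lost without old before replicate 3 (edgeR adjusted p 0.121, 0.102 and 0.0551), that at 72 also without old 72 replicate 2 or 3, and that at 96 without old 96 replicate 2 or 3.

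**Figure D2:**
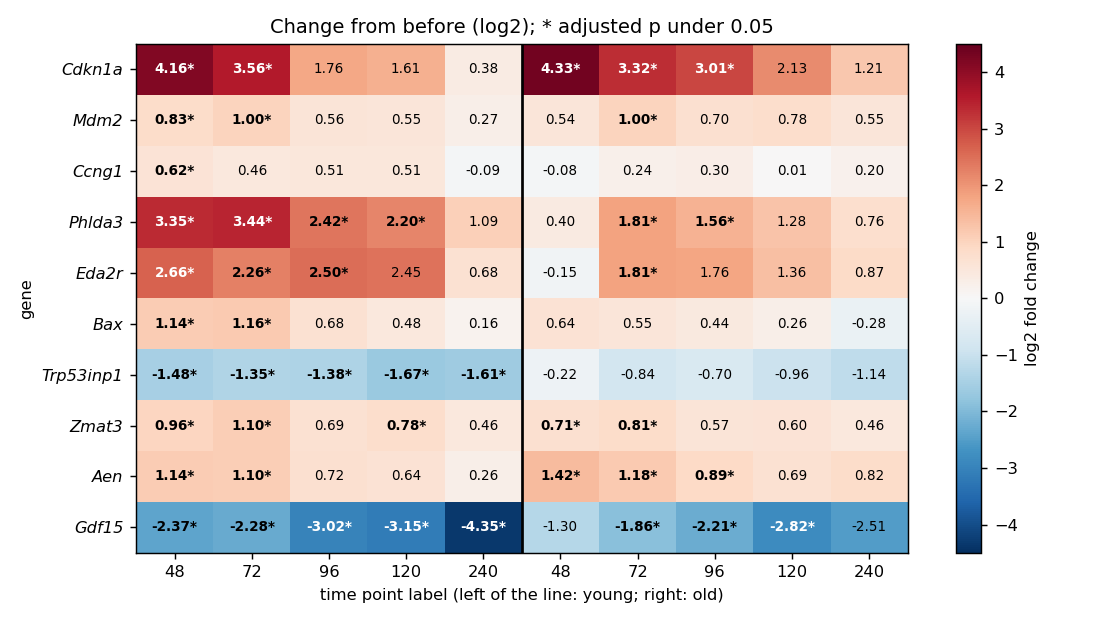
Log2 fold change of each member at the 5 later time point labels against before, young left and old right of the line, with a star where the edgeR adjusted p was under 0.05. Young livers at 48 carry a star for all 10 members, old livers at 48 for Cdkn1a, Zmat3 and Aen.

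Counted over the list, the 10 members moved in young livers most at 48, where 8 rose and 2 fell. Of all 13436 genes tested, 12.2% rose and 9.79% fell in that comparison. At 72, 7 members rose and 2 fell (9.21% and 8.21% of all genes). Smaller counts followed, with 2 up and 2 down at 96 (0.662% and 0.737%), the same counts at 120 (0.216% and 0.365%), and 2 down at 240 (0.194%). The 2 that fell were Trp53inp1 and Gdf15 each time. The rises at 96 and at 120 numbered 0 without young before replicate 1, and over all fits that left out 1 library they ran from 0 to 3 and from 0 to 2, while those at 48 and 72 stayed between 6 and 8.

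In old livers 3 members rose at 48 and 0 fell, while 12.1% of all genes rose and 12% fell. The counts were 6 up and 1 down at 72 (6.54% and 5.81% of all genes), 3 up and 1 down at 96 (3.76% and 3.07%), and 1 down at 120 (2.02%). At 240 edgeR called 0 members (0.156% of all genes in either direction), with 5 at an unadjusted p under 0.05 and 1 called by DESeq2. The median change of the 10 members at 48 was 1.05 in young and 0.47 in old on the log2 scale, where the medians over all genes were -0.01 and 0.01. Young and old were each compared with their own 3 libraries before, so the 5 counts of an age share those controls. Over the 5 times the old calls numbered 15, and 8 without old before replicate 3. Without old 72 replicate 3 the calls at 72 fell from 7 to 1, and without old 96 replicate 1 the rises at 96 fell from 3 to 0. Leaving out 1 library at a time gave 3 or 4 rises at 48, 1 to 6 at 72, 0 to 6 at 96 and 0 to 3 at 120.

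The comparison of old with young asked whether age shifts these genes. Averaged over the 6 time points, Cdkn1a was 2.03-fold higher in old (1.02 ± 0.29 on the log2 scale, SE, edgeR adjusted p 0.0323), and its old mean was the higher one at 6 of 6 times. It was the 1 member called of 10, beside 3.39% of all genes called higher in old and 5.98% in either direction. Gdf15 (0.52 ± 0.24, SE, edgeR adjusted p 0.215) and Zmat3 (0.18 ± 0.08, SE, edgeR adjusted p 0.177) had positive differences that did not pass. For Phlda3, Trp53inp1, Mdm2, Eda2r, Aen, Ccng1 and Bax the averaged difference lay between -0.08 and 0.28, with edgeR adjusted p of at least 0.336. The Cdkn1a call was lost without any 1 of 10 libraries: young before 1, young 48 2, young 72 3, young 120 2, young 240 1, old before 1, old 48 2, old 72 3, old 96 1 and old 240 1, where the number after the time is the replicate. Its difference then lay between 0.84 and 1.00, with edgeR adjusted p from 0.05003 to 0.0798.

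At single time points, Cdkn1a did not pass at any. Its difference was 0.78 ± 0.60 at 48 (SE, edgeR adjusted p 0.459) and 0.0083 there without old 48 replicate 2, 1.85 ± 0.67 at 96 (SE, edgeR adjusted p 0.206) and 1.12 ± 0.68 at 120 (SE, edgeR adjusted p 0.627). Phlda3 and Eda2r were lower in old at 48, and these were the 2 members called there, beside 6.78% of all genes called lower, 4.42% higher and 11.2% in either direction. Phlda3 was 2.94-fold lower in old (-1.55 ± 0.42 on the log2 scale, SE, edgeR adjusted p 0.0153) and Eda2r 3.78-fold lower (-1.92 ± 0.60, SE, edgeR adjusted p 0.0383). Ccng1 also had old libraries at 48 wholly below the young ones, at 73.4 to 111 CPM against 115 to 137 CPM, with a difference that did not pass (-0.54 ± 0.22, SE, edgeR adjusted p 0.108). Trp53inp1 (0.89 ± 0.32, SE, edgeR adjusted p 0.0743) had the opposite sign. When only the 6 libraries of 48 were fitted, both calls were lost (edgeR adjusted p 0.0774 for each). Phlda3 was also lost without young 48 replicate 1 (edgeR adjusted p 0.0554) or old 48 replicate 2 (0.0565), and Eda2r without any 1 of the 6 libraries (0.0597 to 0.1097).

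At the other 5 time points edgeR and DESeq2 each called 0 members between the ages. The shares of all genes called by edgeR there were 0.0595% before, 0% at 72, 0.171% at 96, 0% at 120 and 0.0149% at 240. Members at an unadjusted p under 0.05 numbered 1 before, 0 at 72, 1 at 96, 0 at 120 and 3 at 240. They were Phlda3 before (1.39 ± 0.54, SE, edgeR adjusted p 0.578), Cdkn1a at 96, and Ccng1, Phlda3 and Gdf15 at 240, all of them higher in old.

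**Figure D3:**
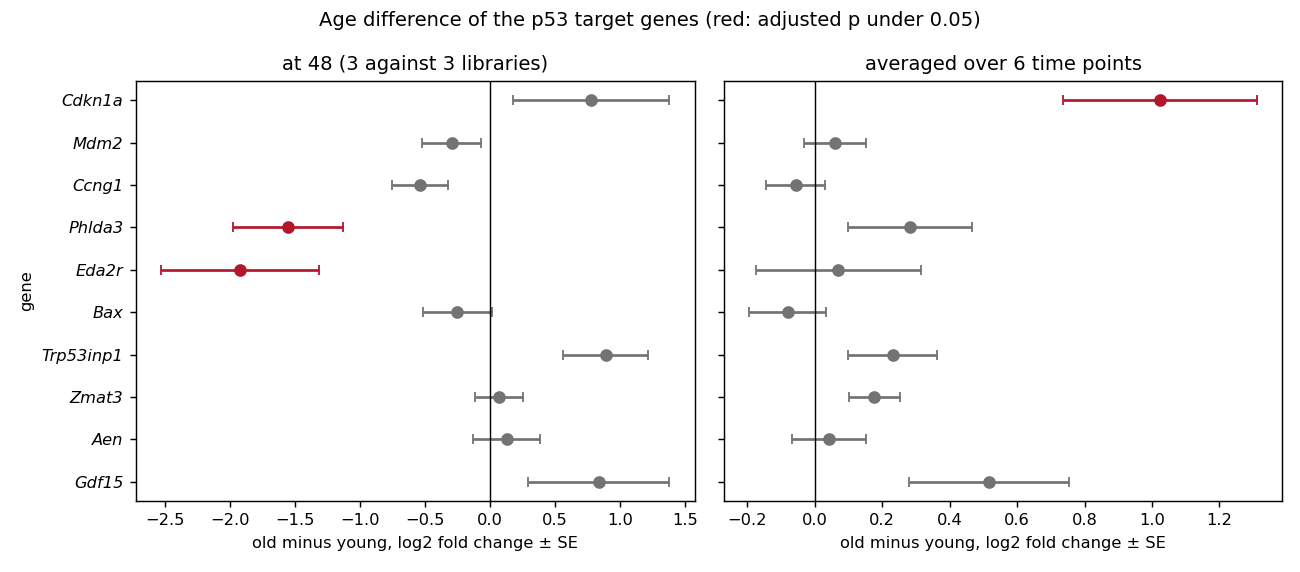
Old minus young log2 fold change with its SE for each member at 48 (left, 3 against 3 libraries) and averaged over 6 time points (right), red where the edgeR adjusted p was under 0.05; the horizontal scales differ. Phlda3 (-1.55) and Eda2r (-1.92) stand to the left at 48, and Cdkn1a (1.02) to the right in the average.

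Whether the change over time itself differed between the ages was tested by the age by time interaction. Phlda3 passed (edgeR adjusted p 0.0442) and was the 1 member of 10 to do so, beside 2.76% of all genes. Its change from before to 48 was smaller in old than in young (-2.95 ± 0.69 on the log2 scale, SE, edgeR adjusted p 0.0311), where 1% of all genes had a lower change in old and 1.38% differed in either direction. Without old 48 replicate 2 that value was -2.99 and did not pass (edgeR adjusted p 0.0703). Eda2r had a difference of the same sign that did not pass (-2.81 ± 0.91, SE, edgeR adjusted p 0.1097), as did Ccng1 (-0.71 ± 0.30, SE, edgeR adjusted p 0.237). For Cdkn1a the difference between the ages in its rise to 48 was 0.17 ± 1.08 (SE, edgeR adjusted p 0.968). The old and young values of Phlda3 before also entered that test, and they differed in the opposite direction. The interaction call for Phlda3 was lost in 26 of 36 fits that left out 1 library, all those that left out a library of 48 among them, and the edgeR or DESeq2 adjusted p ran from 0.00316 to 0.166 over all alternatives.

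Other genes of the pathway were read from lists of regulators and of further targets. Of 12 listed p53 regulators, 9 were tested, and Trp53 itself, which encodes p53, held 7.87 ± 1.54 CPM in young and 10.01 ± 3.04 CPM in old before (SD, n = 3 each). Trp53 rose in young at 48 by 0.69 ± 0.22 (log2, SE, edgeR adjusted p 0.0244), and its age difference was 0.08 ± 0.21 at 48 and 0.12 ± 0.09 on average (SE, edgeR adjusted p 0.867 and 0.508). At 48, 5 of the 9 regulators were lower in old and 0 higher (6.78% and 4.42% of all genes). The list median was -0.51 against 0.02 for all genes. They were Mdm4, a relative of MDM2 that restrains p53 (-0.51 ± 0.13, SE, edgeR adjusted p 0.0106), the phosphatase gene Ppm1d (-1.01 ± 0.21, SE, edgeR adjusted p 0.00204), and the DNA damage kinases Atm, Chek1 and Chek2 (-0.93, -1.95 and -1.42). Ppm1d, Chek1 and Chek2 were named after their values were seen. Of the kinases, Atm was also lower in old on average (-0.32 ± 0.06, SE, edgeR adjusted p 0.000785), the 1 regulator of 9 called there, beside 5.98% of all genes in either direction. From before to 48, 5 of the 9 rose in young and 0 fell (12.2% and 9.79% of all genes), and in old 1 rose and 1 fell (12.1% and 12%), a share near that of all genes.

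The list of further targets held 26 genes, of which 25 were tested. Averaged over time, 2 were higher in old and 0 lower, while 3.39% of all genes were higher. They were Ddit4, a gene for an inhibitor of mTOR signalling (0.81 ± 0.23, SE, edgeR adjusted p 0.0315), and Pltp, which encodes a phospholipid transfer protein (0.60 ± 0.15, SE, edgeR adjusted p 0.0117). The list's median age difference was 0.14 against 0.0017 over all genes. At 48, 1 further target was higher in old (Ddit4, 2.28 ± 0.56, SE, edgeR adjusted p 0.00825), near the share of all genes (4.42%), and 3 were lower (6.78%). The 3, named after their values were seen, were Plk2, Psrc1 and Gtse1 (-0.88, -3.13 and -2.48), of which Psrc1 and Gtse1 are known for roles in mitosis. From before to 48, 5 of the 25 rose and 7 fell in young (12.2% and 9.79% of all genes), and 3 rose and 5 fell in old (12.1% and 12%). The old rises are near the share of all genes.

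The old libraries at 48 also stood apart in genes of cell division and of the integrated stress response, a programme started when translation initiation is restrained. Summed over 10 proliferation genes, young livers at 48 held 3697, 2012 and 3907 CPM and old livers 318, 50.03 and 780 CPM. Summed over 10 stress response genes, young livers held 919, 741 and 870 CPM and old livers 4456, 1071 and 2505 CPM. So the old library with the highest Cdkn1a at 48 (replicate 2, 191 CPM) had the lowest sum of the 3 on both lists. Single genes weighed heavily in these sums. Of the proliferation sums, Mki67 alone held 2595, 1404 and 2867 CPM in young and 154, 13.98 and 561 CPM in old. Of the stress response sums, Atf5 alone held 650, 491 and 600 CPM in young and 3621, 617 and 2151 CPM in old. Sesn2 stands both among the further targets and among the stress response genes. By gene, 9 of 10 proliferation genes were lower in old at 48 (median -3.08), beside 6.78% of all genes. Of the 10 stress response genes, 7 were higher (median 2.05), beside 4.42% of all genes. The median over all genes was 0.02. On average over time, 2 stress response genes were called higher in old, beside 3.39% of all genes. They were Atf5 (0.72 ± 0.20, SE, edgeR adjusted p 0.0269) and Nupr1 (0.85 ± 0.22, SE, edgeR adjusted p 0.0203). The part of these programmes in the age differences of Phlda3, Eda2r and Cdkn1a was not tested.

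Markers of the other liver cells gave sums whose ranges overlapped between the ages when all times were pooled, but not at every single time. Macrophage and monocyte markers summed to between 218 and 600 CPM in young and between 169 and 577 CPM in old libraries, endothelial markers to between 226 and 412 CPM and between 251 and 440 CPM, and stellate cell markers to between 208 and 738 CPM and between 157 and 379 CPM. Cholangiocyte markers lay between 25.2 and 285 CPM in young and 29.96 and 215 CPM in old, and T and B cell markers between 3.20 and 12.97 CPM and between 0.445 and 23.3 CPM. At 48 cholangiocyte sums were 28.6 to 40.4 CPM in young and 56.7 to 215 CPM in old. Young sums lay wholly above old ones in 5 further cases. At 96 these were macrophages (408 to 441 against 252 to 347 CPM) and endothelium (342 to 363 against 268 to 303 CPM). T and B cells joined them there (6.08 to 7.46 against 3.72 to 5.15 CPM). The others were endothelium at 120 (332 to 392 against 286 to 288 CPM) and stellate cells at 72 (266 to 738 against 211 to 263 CPM). Between young livers before and at 48, endothelial sums did not overlap (366 to 412 and 226 to 307 CPM). Nor did hepatocyte sums there (25601 to 28451 and 20007 to 20398 CPM). In old livers both overlapped between these times, at 320 to 440 and 251 to 374 CPM for endothelium and 19262 to 26702 and 19154 to 20929 CPM for hepatocytes. Single libraries stood out as well. Stellate cell markers summed to 736, 738 and 266 CPM in young at 72 and to 645, 728 and 301 CPM at 96, against 233 to 326 CPM before. Cholangiocyte markers summed to 124 and 285 CPM in young 72 replicates 1 and 2, and to 215 CPM in old 48 replicate 2, the library with the highest Cdkn1a. T and B cell markers summed to 0.445, 1.01 and 6.95 CPM in old at 48. Of the markers on these lists, 0 were at zero in all libraries. Their part in the members' values was not tested.

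The Y-linked split ran through several members. With a term for it in the fit, 4 of the 10 members were higher in the 12 libraries with Y-linked transcripts and 0 lower, while 4.56% of all genes were higher and 3.83% lower. Mdm2 was higher by 0.38 ± 0.07 (log2, SE, edgeR adjusted p 0.000416) and was highest in the Y-linked library in 11 of 12 groups. Eda2r, a gene on the X chromosome, was higher by 0.78 ± 0.21 (SE, edgeR adjusted p 0.0158) with a mean of 23.1 CPM against 12.7 CPM. Aen (0.32 ± 0.10, SE, edgeR adjusted p 0.0429) and Ccng1 (0.25 ± 0.08, SE, edgeR adjusted p 0.0459) completed the 4. For Cdkn1a the difference was 0.47 ± 0.29 (SE, edgeR adjusted p 0.356), and for Phlda3 it was 0.38 ± 0.17 (SE, edgeR adjusted p 0.200). Each group held 1 such library, so the split was balanced over age and time.

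**Figure D4:**
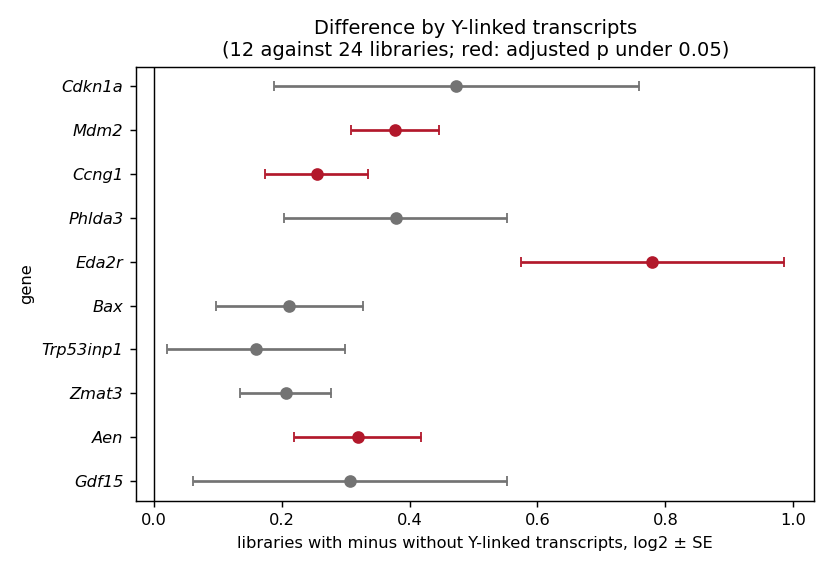
Log2 difference with its SE between the 12 libraries with and the 24 without Y-linked transcripts for each member, from the fit with a term for the split, red where the edgeR adjusted p was under 0.05. All 10 points lie to the right of zero, and Mdm2, Ccng1, Eda2r and Aen are red.

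The age difference of Cdkn1a was larger among the Y-linked libraries. On the scale of log2(CPM + 1), the averaged old minus young difference was 0.82 over all libraries, 1.38 in the Y-linked libraries (higher in old at 5 of 6 times) and 0.53 in the others (4 of 6 times). Without the 12 Y-linked libraries, the fitted difference was 0.64 and did not pass (edgeR adjusted p 0.301). The low values of Phlda3 and Eda2r in old livers at 48 were as large without them, at -1.60 and -2.01 (edgeR adjusted p 0.0344 and 0.0269). Averaged over time, Phlda3 differed by 0.65 in the Y-linked libraries and by -0.09 in the others, and Eda2r by 0.49 and -0.32. These differences between the sides were not tested.

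Several members also varied with Cdkn1a among libraries of the same age and time point. Each library's deviation from its group mean on the log2(CPM + 1) scale was compared between Cdkn1a and each of the 9 other members over 36 libraries, with 100000 permutations within groups and adjustment over the 9 relations. Genes outside the list were not compared in this way, so whether members follow Cdkn1a more closely than other genes was not tested. Aen had Pearson's r 0.62 (permutation p 0.00051, adjusted 0.00454) and Spearman's rho 0.64 (permutation p 0.00057, adjusted 0.00348). Zmat3 had r 0.60 (permutation p 0.00101, adjusted 0.00454) and rho 0.63 (permutation p 0.00116, adjusted 0.00348). Phlda3 had r 0.68 (permutation p 0.00153, adjusted 0.00459) and rho 0.60 (permutation p 0.00089, adjusted 0.00348). These were the 3 relations with the lowest p, and a library high in Cdkn1a for its group was usually high in each of the 3 as well. Eda2r had r 0.64 (permutation p 0.00269, adjusted 0.00531) with rho 0.61 (permutation p 0.00291, adjusted 0.00655), and Mdm2 r 0.61 (permutation p 0.00295, adjusted 0.00531) with rho 0.53 (permutation p 0.00804, adjusted 0.0145). Ccng1 had r 0.48 (permutation p 0.0234, adjusted 0.0351) and rho 0.49 (permutation p 0.0116, adjusted 0.0175).

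The other three members did not pass. Bax had r 0.43 and rho 0.43 (permutation p 0.0605 and 0.0403, adjusted 0.0777 and 0.0518), Gdf15 r 0.35 and rho 0.30 (permutation p 0.101 and 0.146, adjusted 0.113 and 0.165), and Trp53inp1 r 0.13 and rho 0.09 (permutation p 0.672 and 0.686, adjusted the same). Without old 96 replicates 1 and 3, the 2 libraries farthest in Cdkn1a, r was 0.61 for Zmat3, 0.60 for Aen, 0.54 for Eda2r, 0.49 for Mdm2, 0.45 for Phlda3, 0.32 for Ccng1, 0.33 for Bax, 0.23 for Gdf15 and -0.18 for Trp53inp1. Among the 6 relations that passed, r moved most for Phlda3 and Ccng1, and for Trp53inp1 it changed sign. Over the 24 libraries without Y-linked transcripts, r was 0.66 for Aen, 0.63 for Eda2r, 0.62 for Phlda3, 0.59 for Zmat3, 0.56 for Mdm2 and 0.55 for Ccng1. With 2 libraries per group none of the 9 relations then passed (lowest adjusted permutation p 0.14). The libraries share their scaling and depth range, and the proliferation and stress response sums vary among them as well.

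**Figure D5:**
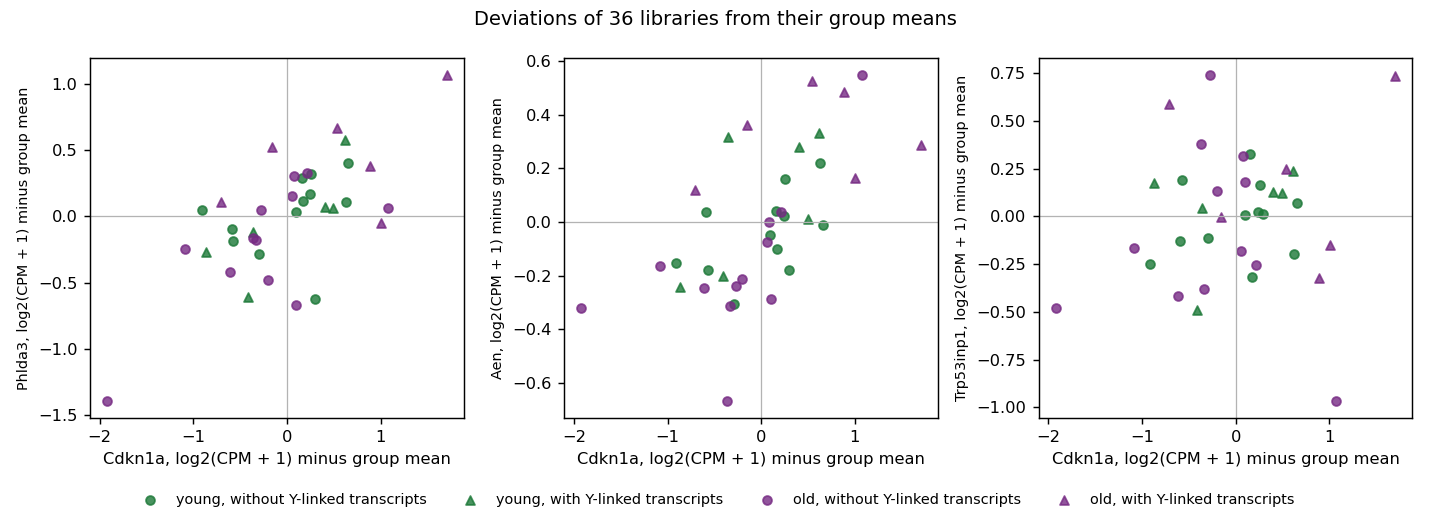
Deviation of Phlda3 (left), Aen (middle) and Trp53inp1 (right) from the group mean against that of Cdkn1a, log2(CPM + 1), 1 point per library (36), triangles for libraries with Y-linked transcripts. Phlda3 (r 0.68) and Aen (r 0.62) climb with Cdkn1a, with old 96 replicates 1 and 3 at the far right and left, and Trp53inp1 (r 0.13) does not.

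Across the 12 group means, the genes outside the list whose course was most like that of Cdkn1a were Kctd3 (Pearson's r 0.979), Syt12 (0.976), Rassf1, Ccdc120 and Ywhaz (0.973 each). Among the members alone, Aen (0.90), Zmat3 (0.88), Bax (0.84), Mdm2 (0.80) and Phlda3 (0.75) had the highest values, then Eda2r (0.53) and Ccng1 (0.43), with Gdf15 (-0.09) and Trp53inp1 (-0.21) at the end. How many genes outside the list lay above each member was not counted. These are descriptions over 12 means that share the same 6 time points.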

How the data were processed

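Total RNA of mouse liver was sequenced after ribosomal RNA depletion, per the labels' protocols. The authors deposited raw read counts as whole numbers, 1 table of gene symbols for each library, without normalization. The submitters' processing notes name GRCm38 and mm10 as builds and, among other tools, Trimmomatic 0.39, STAR 2.7.5b and featureCounts. Their settings, the annotation and the use of strand are not given in the sources used here, so reads of overlapping genes could not be assigned with certainty. The protocols describe ERCC spike-ins, and 0 ERCC rows were in the tables, so amounts of RNA per cell cannot be read from the values.

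All 36 libraries entered 1 quasi-likelihood fit in edgeR 4.0.16 (R 4.3.3), with a mean per group, TMM scaling (factors 0.930 to 1.133), filterByExpr (13436 of 21955 genes kept) and robust estimation of the spread. P-values were adjusted by Benjamini-Hochberg over all genes tested in each comparison. Calls needed an adjusted p below 0.05. The common biological coefficient of variation was 24.7%. Deviations and patterns used log2(CPM + 1). Tested on simulated counts (13229 genes, 200 changed), the averaged age comparison called 98% of 4-fold and 90% of 2-fold changes with 15 false among 203 calls. The same test at 48 called 83% and 48% with 10 false among 141, and a comparison without change called 0. The closest pair of libraries of a group differed by more than sampling noise (chi-square per degree of freedom 5.09), and the farthest pair was in old 48 (71.2).

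A library was counted as Y-linked where Y-linked transcripts reached more than 10 CPM. Alternatives were DESeq2 1.42.0, other scalings and filters, a replicate block, a term for or removal of Y-linked libraries, fits of only the groups compared, leaving out each library and, chosen after seeing the data, a spread without robust weighting. All members were reported, and of the other lists those genes called in the averaged age comparison, with Trp53 and Mdm4. Ppm1d, Chek1, Chek2, Plk2, Psrc1 and Gtse1 fall outside that rule and were named after their values at 48 were seen. The genes most like Cdkn1a were the 5 with the highest correlation over the group means. The members and lists were chosen with earlier results of these data known.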

Additional observations from a re-analysis of the deposited data

Results flagged for a closer look

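Phlda3 was the 1 member of 10 called for a change over time that differed between the ages, a call lost in 30 of 45 alternatives. Eda2r had a difference of the same sign at 48 that did not pass. The age by time interaction gave an edgeR adjusted p of 0.0442, and the difference between old and young in the change from before to 48 gave an edgeR adjusted p of 0.0311. Both values rest on the same libraries, among them the 3 young libraries before, at 0.832, 2.49 and 2.42 CPM, the lowest level of Phlda3 in any group. What underlies the difference was not tested.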

How the results depend on the processing

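No call reversed its direction under any alternative. The averaged age call of Cdkn1a was lost in 12 of 45 alternatives, that of Phlda3 at 48 in 3 of 46 and that of Eda2r at 48 in 8 of 46. Members called in the averaged age comparison numbered 1, and 0 with no filter on low counts or without the Y-linked libraries. Calls at single time points numbered 2 with all libraries, 1 with no filter and 0 when only the groups compared were fitted. Old calls against before numbered 15, 23 with a term for Y-linked transcripts and 9 with only the groups compared. Young calls (29) ran from 22 to 31. The interaction call (1) went to 0 with total-count scaling, with no filter and without the Y-linked libraries, and the 6 relations with Cdkn1a went to 0 without the Y-linked libraries, where groups hold 2 libraries. Leaving out 1 library gave 0 to 1, 0 to 3, 20 to 30, 8 to 22 and 0 to 1 calls for the averaged age, single time, young, old and interaction comparisons. Total-count scaling moved the median of all genes by up to 0.20 on the log2 scale (young 72), and no filter by up to -0.10 (old 48).

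With the replicate number as a block, the replicate block fits gave 1 averaged age call, 2 at single times, 27 in young, 15 in old (16 with the block nested in age), 0 for the interaction and 7 relations. Libraries with equal numbers in other groups had a mean correlation of deviations of 0.0553 (198 pairs), against -0.0234 over 396 pairs with different numbers. By the same measure, 16 of 36 libraries were closest to their own number, out of 3 numbers each could be closest to. Of the 12 libraries with Y-linked transcripts, 7 had number 1, 1 had number 2 and 4 had number 3. The replicate numbers were thus not balanced over that split. Whether equal numbers mark a shared origin was not tested. Depth limits the lowest levels most, such as that of Phlda3 before in young (4 counts in replicate 1), and groups of 3 limit every comparison.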
